A study of Rattus norvegicus with 8 samples.

Results

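The glutathione transferases and other detoxification enzymes of rat spinal cord cultures are described here, as they stood with and without fibroblast growth factor 9 (FGF9). They were chosen by gene symbol from an array of 14506 named genes: 54 genes whose symbols begin with Gsta, Gstk, Gstm, Gsto, Gstp, Gstt, Mgst, Fmo, Sult, Nqo, Cbr or Akr1. Of these, 19 are glutathione transferases of the alpha (3), mu (8), pi (1), theta (2), omega (2), kappa (1) and microsomal (2) families. The others are 5 flavin-containing monooxygenases (FMO), 11 sulfotransferases (SULT), 2 quinone reductases (NQO), 3 carbonyl reductases (CBR) and 14 aldo-keto reductases (AKR1). A gene with more than 1 array feature is represented by its brightest one on average. The group was put forward with the FGF9 differences of Gstm7, Fmo1 and Sult1a1 already known, so those 3 are given as a description with no test.

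The cultures were prepared from the spinal cords of Sprague-Dawley rat embryos at E15.5 and are labelled as myelinating cultures. The groups were FGF9 for 24 h, untreated control at 24 h, FGF9 for 10 days and untreated control at 10 days, with 2 Affymetrix Rat Gene 1.0 ST arrays each. The factor was human FGF9 at 100 ng/ml. The source label names neurosphere-derived astrocytes instead, and the growth protocol also tells of neurospheres raised from rat striatum, but neuronal markers (list means of 9.66 to 11.44 on the 8 arrays), astrocyte markers (10.42 to 12.06) and myelin markers (8.98 to 11.47) were all well above the low end of the arrays.

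Values are on a log2 scale, on which a difference of 1 is a 2-fold difference, and array medians over the named genes lay between 7.51 and 7.71. Same-numbered FGF9 and control arrays of a time point carry one array name prefix and are called a pair: CL1 for pair 1 and CL2 for pair 2 at 24 h, and CL2 for pair 1 and AA1 for pair 2 at 10 days. No label says that replicates were separate cultures, so p-values reflect only how far these arrays scatter, which may be technical. In bulk RNA, fewer cells of a type and less RNA per cell cannot be told apart. Of the 54 genes, 37 had an 8-array mean at or above 5.68, the 25th percentile of all genes. The other 17, with single values between 4.24 and 6.18, lay near the low end and are named further on.

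Glutathione transferases join the thiol of glutathione to reactive, electron-poor compounds, which can then be exported, and several are abundant in astrocytes. Sulfotransferases move a sulfate group onto phenols, amines and steroids, and FMO enzymes add oxygen to nitrogen and sulfur atoms. NQO, CBR and AKR1 enzymes reduce quinones, ketones and aldehydes. Many genes of these families are known targets of the transcription factor NRF2 (Nfe2l2), which binds antioxidant response elements in their promoters.

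The core letters of that element, TGACNNNGC (N is any base), were searched on both strands in the 250 bases before each annotated gene start of the RefSeq promoter table (build GRCr8). Of the 54 genes 45 had a window, and 5 of these held the letters: Gstp1, Gstm5, Gstm7, Gsta3 (in 1 of its 2 windows) and Akr1c15. Counted by window, that was 5 of 47 (10.6%), and among all 33469 windows the share was 10.1%. The windows of Gstm7 (chr2:198260320-198260569, minus strand), Gstp1 (chr1:210769706-210769955, minus strand) and Gstm5 (chr2:198219519-198219768, plus strand) are shown because these genes, whose values were above the array median on all 8 arrays, carry the same letters and differed in opposite ways. Capitals mark the match.
Gstm7: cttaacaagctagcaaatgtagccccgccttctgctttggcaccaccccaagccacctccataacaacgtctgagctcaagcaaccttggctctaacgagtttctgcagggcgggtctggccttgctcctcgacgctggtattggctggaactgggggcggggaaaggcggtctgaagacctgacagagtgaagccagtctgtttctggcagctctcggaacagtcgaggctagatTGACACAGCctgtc
Gstp1: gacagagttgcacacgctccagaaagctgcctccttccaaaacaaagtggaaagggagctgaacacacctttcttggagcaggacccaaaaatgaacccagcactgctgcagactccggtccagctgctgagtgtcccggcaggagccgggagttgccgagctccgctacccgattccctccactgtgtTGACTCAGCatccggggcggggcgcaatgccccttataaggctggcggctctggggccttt
Gstm5: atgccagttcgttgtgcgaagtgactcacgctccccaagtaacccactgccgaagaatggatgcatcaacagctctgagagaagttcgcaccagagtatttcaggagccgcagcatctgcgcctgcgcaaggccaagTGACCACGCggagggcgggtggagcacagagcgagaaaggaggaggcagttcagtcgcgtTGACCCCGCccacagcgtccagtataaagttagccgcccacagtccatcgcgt
The match begins 14 bases before the start in Gstm7 and 61 bases before it in Gstp1, and Gstm5 holds 2 matches, 113 and 53 bases before its start. In FGF9 cultures Gstm7 was lower in all 4 pairs and Gstp1 was higher in both pairs at 10 days. Gstm5 went both ways. A match is a description of these letters, not evidence that a factor binds there.

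Of the mu genes, Gstm1, Gstm2 and Gstm7 were lower with FGF9 in all 4 pairs. Of the 6 members of this family above the floor, 5 were lower in both pairs at 24 h, beside 38.2% of all genes above the floor. At 10 days 4 of the 6 were lower in both pairs, beside 32.3% of such genes. The group was put forward from these same comparisons, so nothing is read from such shares here or below. The family median over these 6 was -0.48 at 24 h and -0.54 at 10 days.

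Gstm7 read 10.00 and 9.92 in FGF9 cultures at 24 h, against 10.83 and 10.98 in controls. After 10 days it read 10.59 and 10.92 in FGF9 cultures, against 11.45 and 11.60 in controls. The groups did not overlap at either time, and the differences were -0.95 ± 0.19 and -0.77 ± 0.19 (SE, n = 2 per group). Here and below the SE is that of the fit without a block, unless a block SE is named. That fit takes its spread from all groups together. Its 4 pair differences lay between -0.68 and -1.06.

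Gstm2 read 7.25 and 8.30 in FGF9 cultures at 24 h, against 8.06 and 9.29 in controls. At 10 days it read 8.30 and 6.24 in FGF9 cultures, against 9.62 and 8.94 in controls. The groups overlapped at 24 h and were apart at 10 days, where the ratio of FGF9 to control was 0.248. The difference was -0.91 ± 0.78 at 24 h and -2.01 ± 0.78 at 10 days, with pair values of -1.32 and -2.70. It fell at 10 days when the prefix was used as a block in the fit (SE 0.31, adjusted p = 0.0275), and did not pass without the block (adjusted p = 0.87).

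Gstm1 read 11.25 and 11.15 in FGF9 cultures at 24 h, against 11.78 and 11.86 in controls, and 11.80 and 11.995 in FGF9 cultures at 10 days, against 11.99 and 12.48 in controls. It was lower in all 4 pairs, with pair differences of -0.53 and -0.71 at 24 h and -0.19 and -0.48 at 10 days, and did not pass in either fit (block adjusted p = 0.229 at 24 h and 0.239 at 10 days). Gstm6l, whose values lay between 5.39 and 6.28, differed by -0.75 ± 0.24 at 10 days with groups apart. Gstm4 and Gstm5 differed by -0.29 ± 0.25 and -0.34 ± 0.53 at 24 h and by 0.16 ± 0.25 and 0.18 ± 0.53 at 10 days. Mu genes are closely related copies, so cross-hybridisation between their probes cannot be told apart from a shared change with the table used here.

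**Figure D1:**
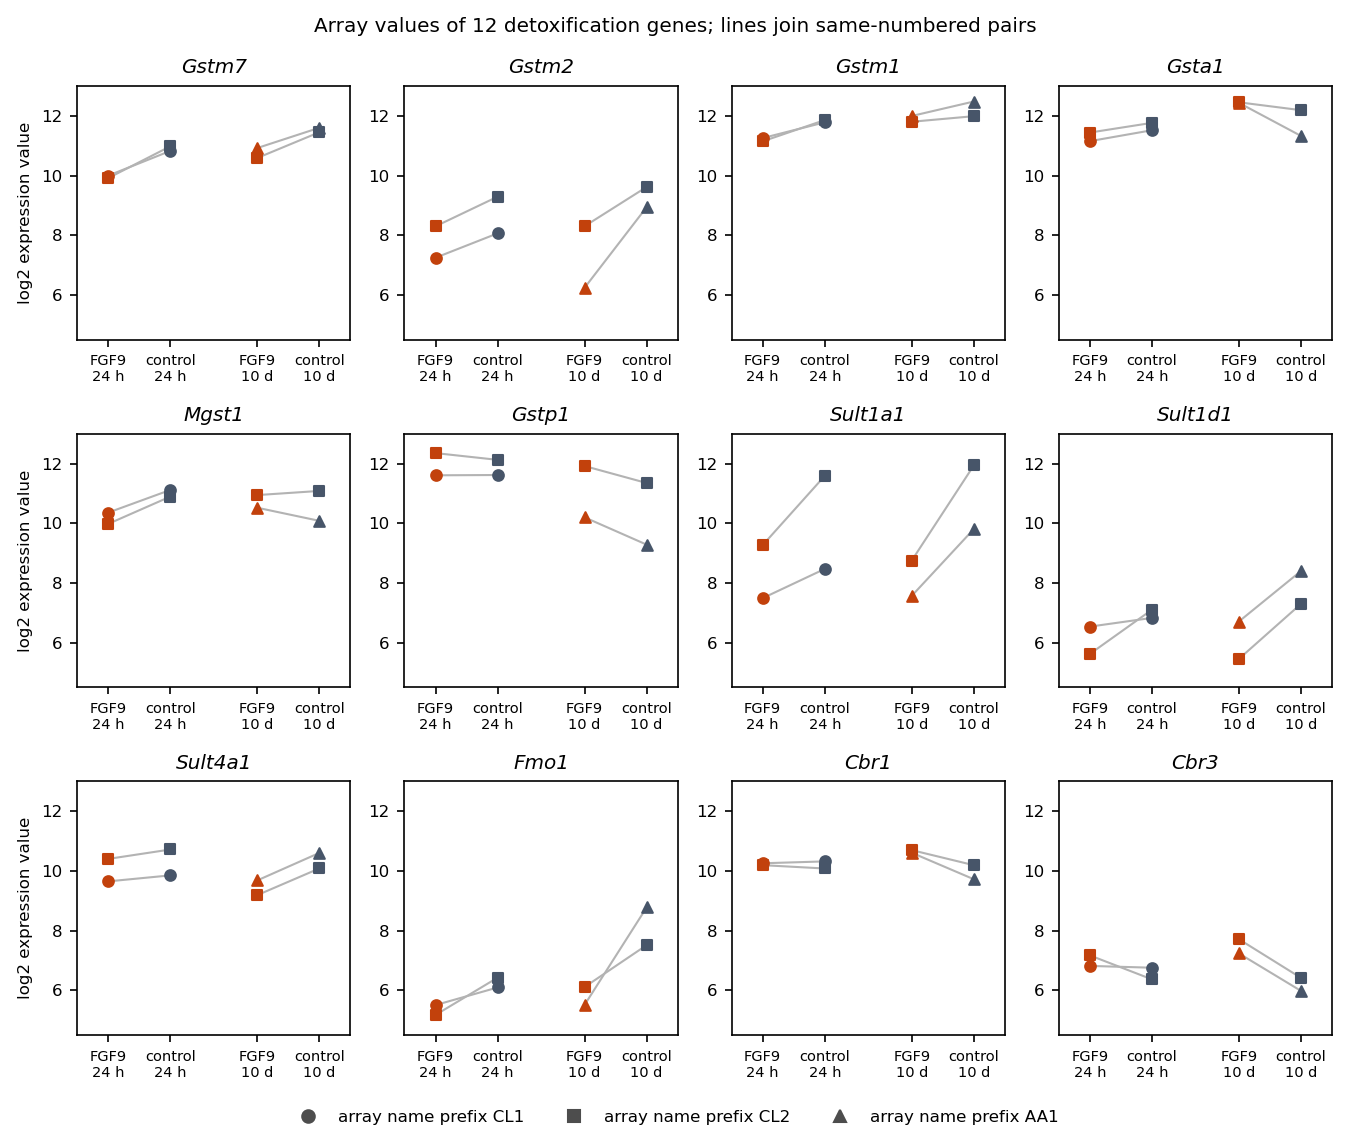
Log2 expression value of 12 detoxification genes on each array, with FGF9 cultures (orange) left of controls (dark) at 24 h and at 10 days, lines joining same-numbered pairs and marker shapes giving the array name prefix. Gstm7, Gstm2, Gstm1, Sult1a1, Sult1d1, Sult4a1 and Fmo1 slope upward from FGF9 to control in every pair, while Cbr3 slopes downward in every pair.

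Gsta1, Gsta4, Gstt1, Gstt2, Gstk1 and Mgst1, of the alpha, theta, kappa and microsomal families, were lower with FGF9 in both pairs at 24 h and had mean differences above 0 at 10 days. None of the 6 passed at either time in either fit, and their relatives Gsta3, under the floor, and Mgst2 did not share that pattern. At 10 days only Gsta1, Gsta4 and Gstt2 of them were higher in both pairs. Gstt1 (-0.42), Gstk1 (-0.12) and Mgst1 (-0.14) were lower in pair 1 and higher in pair 2, on the AA1 arrays. Of all genes above the floor, 38.2% were lower in both pairs at 24 h, and 8.82% were also higher in both at 10 days. Gsta1 read 11.15 and 11.44 in FGF9 cultures at 24 h, against 11.52 and 11.76 in controls. After 10 days its groups had changed places, with 12.45 and 12.44 in FGF9 cultures, against 12.19 and 11.33 in controls. The differences were -0.35 ± 0.31 and 0.69 ± 0.31, and neither passed with the block (adjusted p = 0.574 and 0.123).

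Mgst1, a membrane-bound enzyme that also reduces lipid peroxides, read 10.36 and 9.98 in FGF9 cultures at 24 h, against 11.12 and 10.90 in controls. At 10 days it read 10.94 and 10.52 in FGF9 cultures, against 11.08 and 10.08 in controls. The 24 h groups were apart (-0.84 ± 0.37; block adjusted p = 0.194) and the 10-day groups overlapped (0.15 ± 0.37). Gstk1, the kappa enzyme of mitochondria and peroxisomes, read 9.50 and 9.36 in FGF9 cultures at 24 h, against 10.23 and 9.98 in controls. At 10 days its difference was 0.30 ± 0.26, with pair values of -0.12 and 0.72.

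Gsta4, which acts on aldehydes from lipid peroxidation, differed by -0.53 ± 0.36 at 24 h and by 0.29 ± 0.36 at 10 days. Its second feature gave -0.59 and 0.10, and the 2 features had opposite signs in pair 1 at 10 days (0.03 and -0.16). Gstt2 differed by -0.37 ± 0.28 and 0.48 ± 0.28 at these times, and Gstt1 by -0.23 ± 0.41 and 0.06 ± 0.41. Over the 16 glutathione transferases above the floor, 11 were lower and 2 higher in both pairs at 24 h (median -0.34), beside 38.2% lower and 30.4% higher of all genes above the floor (median -0.03). At 10 days 5 were lower, 6 were higher and 5 were split between the pairs (median 0.17), beside 32.3% lower and 34.8% higher of all such genes (median 0.02).

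Gstp1, the pi enzyme, read 11.61 and 12.35 in FGF9 cultures at 24 h, against 11.62 and 12.12 in controls. After 10 days the values were 11.92 and 10.20 in FGF9 cultures, against 11.35 and 9.28 in controls. The 10-day groups overlapped, with pair 2 far below pair 1, while FGF9 was higher within each pair (0.57 and 0.92). Gstp1 rose with the block (0.74, SE 0.15, adjusted p = 0.049) and not without it (SE 0.82, adjusted p = 1.00).

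Mgst2, which can make leukotriene C4, was higher with FGF9 in all 4 pairs (0.26 and 1.05 at 24 h, 0.53 and 1.07 at 10 days) but did not pass (block adjusted p = 0.358 and 0.108). Its own level ran from 5.34 to 9.57, with the lowest values of 6.403 in FGF9 and 5.34 in control cultures on the AA1 arrays. Of the omega enzymes, which reduce thiol adducts and dehydroascorbate, Gsto2 was higher at 10 days with groups apart (0.59 ± 0.42; block adjusted p = 0.158). Gsto1 differed by 0.20 ± 0.65 at 24 h and by -0.19 ± 0.65 at 10 days.

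Among the 5 sulfotransferases above the floor, Sult1d1 and Sult4a1 fell at 10 days with the block, 0 passed without it, and Sult1a1 was also lower in every pair. Sult1a1, the phenol sulfotransferase, read 7.49 and 9.27 in FGF9 cultures at 24 h, against 8.47 and 11.59 in controls. At 10 days it read 8.75 and 7.57 in FGF9 cultures, against 11.94 and 9.81 in controls. Controls alone spanned 3.47 log2 units, yet FGF9 was lower within each pair, with differences of -0.98 and -2.32 at 24 h and -3.19 and -2.24 at 10 days. The ratio of FGF9 to control was 0.319 at 24 h and 0.152 at 10 days.

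Sult1d1, which in rodents sulfates catecholamines, read 6.54 and 5.62 in FGF9 cultures at 24 h, against 6.83 and 7.10 in controls. Its 10-day values were 5.45 and 6.71 in FGF9 cultures, against 7.30 and 8.399 in controls. The groups were apart at both times, and the differences were -0.89 ± 0.57 and -1.77 ± 0.57. The 10-day fall passed with the block (SE 0.28, adjusted p = 0.0275) and not without it (adjusted p = 0.729).

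Sult4a1, a brain form found mainly in neurons, read 9.65 and 10.40 in FGF9 cultures at 24 h, against 9.85 and 10.72 in controls. After 10 days it read 9.19 and 9.68 in FGF9 cultures, against 10.09 and 10.61 in controls. The 10-day pair differences, -0.89 and -0.92, were nearly equal, and this fall passed with the block (SE 0.13, adjusted p = 0.0237) and not without it (SE 0.42, adjusted p = 0.96). All 10 neuronal markers measured were also lower at 10 days (median -0.97), beside 46.8% of all genes. Of these markers 9 passed the threshold with the block, where 3.31% of all genes fell. The neuronal list mean was 9.66 and 10.42 in FGF9 cultures, against 10.63 and 11.44 in controls. Its part in the Sult4a1 value was not tested.

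Sult5a1 was lower in both pairs at 24 h (-0.25 ± 0.18) and higher in both at 10 days (0.27 ± 0.18), and Sult2b1, a cholesterol sulfotransferase, differed by -0.08 ± 0.22 and 0.03 ± 0.22. Papss1 and Papss2 make the sulfate donor of sulfotransferase reactions. At 10 days Papss2 differed by -1.65 ± 1.26 (pair values -0.30 and -3.0) and Papss1 by 0.83 ± 0.44, and neither passed (block adjusted p = 0.153 and 0.0534).

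Among the FMO genes Fmo1 stood lowest against control. It read 5.51 and 5.18 in FGF9 cultures at 24 h, against 6.10 and 6.42 in controls. Its 10-day values were 6.11 and 5.51 in FGF9 cultures, against 7.51 and 8.78 in controls. The FGF9 values lay close to the low end of the arrays. Fmo1 at 10 days minus 24 h was 0.47 ± 0.45 in FGF9 cultures and 1.89 ± 0.45 in controls, and neither passed (adjusted p = 0.815 in FGF9 cultures and 0.983 in controls; 0.246 in controls with the block). On the CL2 arrays, which hold both times, it was 0.93 in FGF9 cultures and 1.09 in controls. The 10-day difference was -2.34 ± 0.45. Fmo4 differed by -0.27 ± 0.30 at 24 h and by -0.64 ± 0.30 at 10 days, with groups apart at both times (block adjusted p = 0.0849 at 10 days). Fmo5 differed by -0.07 ± 0.25 and 0.14 ± 0.25.

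Of the 3 carbonyl reductases, Cbr3 was higher with FGF9 in all 4 pairs, and it alone passed, at 10 days with the block. It read 6.82 and 7.17 in FGF9 cultures at 24 h, against 6.76 and 6.37 in controls. After 10 days it read 7.71 and 7.24 in FGF9 cultures, against 6.42 and 5.98 in controls. The groups were apart at both times, and the 10-day difference of 1.28 ± 0.28 (pair values 1.30 and 1.26), a ratio of FGF9 to control of 2.42, passed with the block (SE 0.20, adjusted p = 0.0275) and not without it (adjusted p = 0.535).

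Cbr1, which also reduces prostaglandins, read 10.26 and 10.19 in FGF9 cultures at 24 h, against 10.32 and 10.08 in controls. At 10 days it read 10.70 and 10.61 in FGF9 cultures, against 10.19 and 9.72 in controls. The 10-day difference was 0.70 ± 0.22, and the second Cbr1 feature gave 0.59. It just missed the threshold with the block (adjusted p = 0.0555). Cbr4, a mitochondrial enzyme, differed by -0.12 ± 0.36 and 0.03 ± 0.36.

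Nqo1, the quinone reductase often read as a sign of NRF2 activity, was lower in both pairs at 24 h (-0.34 ± 0.68, pair values -0.51 and -0.18) and higher in both at 10 days (0.35 ± 0.68, pair values 0.43 and 0.27). Neither difference passed (block adjusted p = 0.424 and 0.223). Nqo2 differed by -0.10 ± 0.51 and 0.16 ± 0.51.

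The aldo-keto reductases had no common direction. Akr1a1, aldehyde reductase, read 12.29 and 12.49 in FGF9 cultures at 24 h, against 12.26 and 12.44 in controls, and its 10-day difference was 0.01 ± 0.20. Akr1b1, the aldose reductase that makes sorbitol from glucose, was higher in all 4 pairs, by 0.31 ± 0.21 at 24 h and 0.40 ± 0.21 at 10 days, with groups apart at both times. Its second feature gave 0.32 and 0.61. Neither time passed (block adjusted p = 0.539 and 0.259).

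Akr1b8 read 5.87 and 7.73 in FGF9 cultures at 24 h, against 5.41 and 5.53 in controls. The difference of 1.33 ± 0.77 came mostly from pair 2 (2.20, against 0.46 in pair 1), and at 10 days pair 1 differed by 1.38 and pair 2 by -0.04. Akr1c19 was lower in all 4 pairs, with 6.02 and 5.89 in FGF9 cultures at 24 h, against 6.54 and 7.69 in controls, and 6.93 and 7.10 in FGF9 cultures at 10 days, against 7.71 and 7.82 in controls. Akr1b10 was lower at 24 h with groups apart (-0.77 ± 0.45) and differed by 0.06 ± 0.45 at 10 days. None of these passed with the block (smallest adjusted p = 0.144, Akr1b10 at 24 h). Akr1c15 differed by -0.38 ± 0.59 at 24 h and by -0.17 ± 0.59 at 10 days. Akr1c14, the rat enzyme that reduces steroid ketones, read highest on the CL2 arrays. It read 6.55 in FGF9 and 8.54 in control cultures on the 10-day CL2 arrays, and 5.04 in FGF9 and 4.86 in control cultures on the AA1 arrays.

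**Figure D2:**
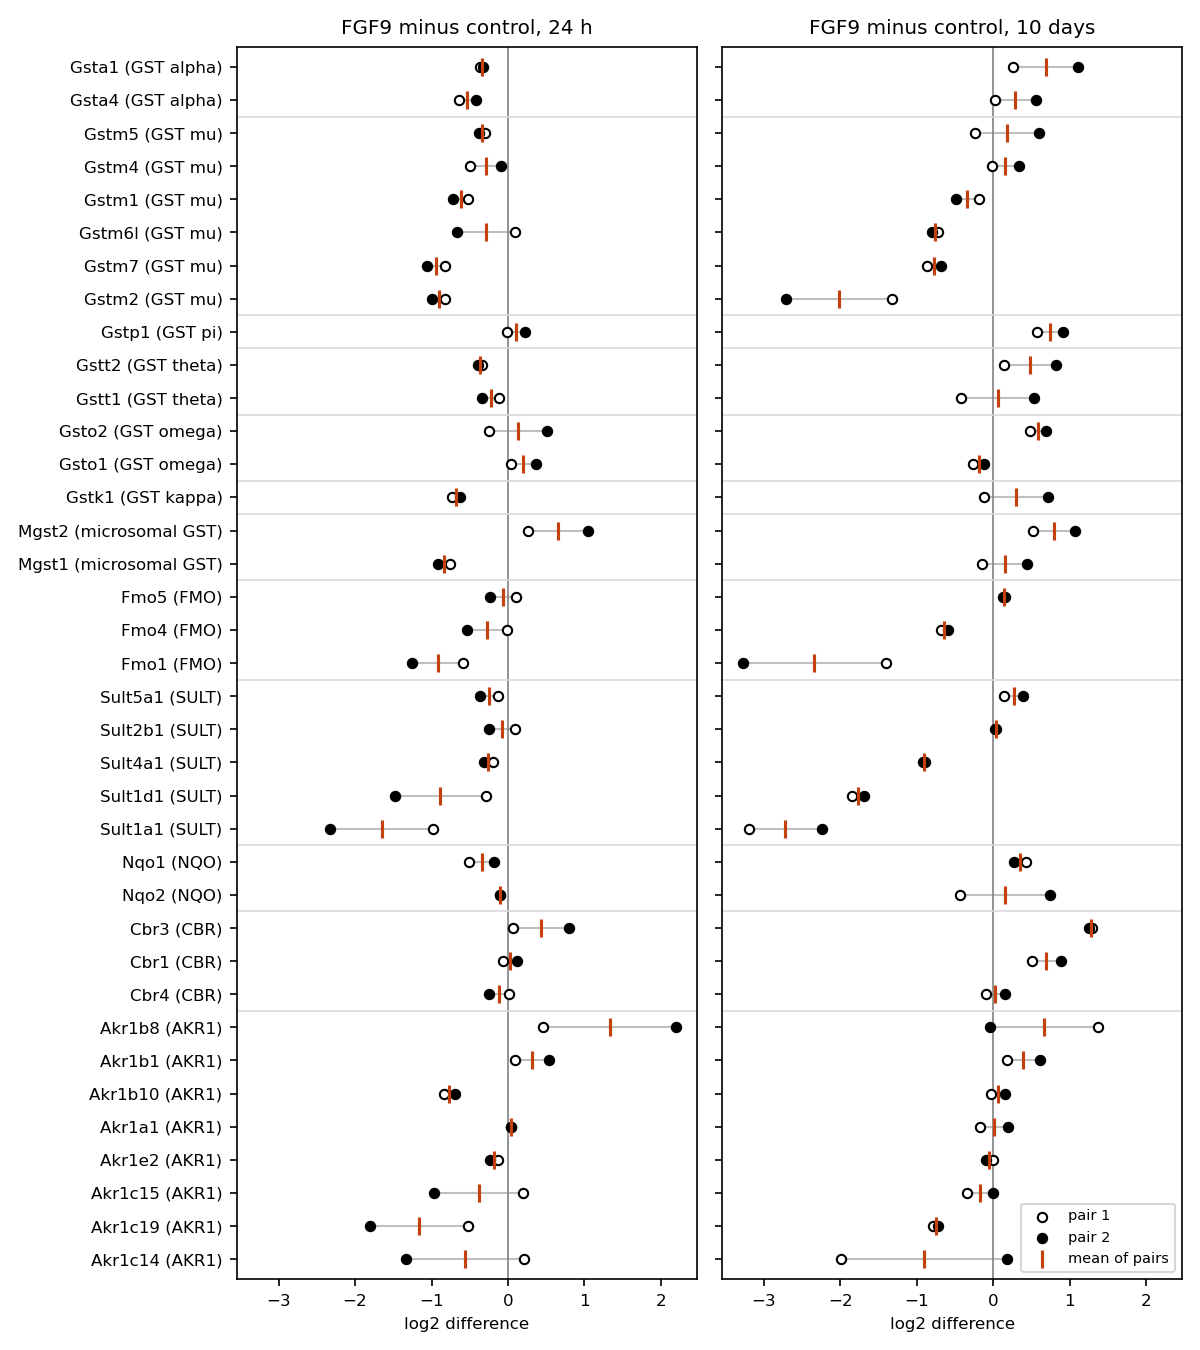
Log2 difference of FGF9 minus control in each same-numbered pair (open circle pair 1, filled circle pair 2, orange bar the mean) at 24 h and at 10 days, for the 37 genes above the floor, grouped by family. The mu genes Gstm7 and Gstm2, the SULT genes Sult1a1, Sult1d1 and Sult4a1, and Fmo1 lie left of zero in every pair; Cbr3, Mgst2 and Akr1b1 lie right of it.

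The calls over all 54 genes were as follows. At 24 h 0 of 54 passed in limma without the block (0% of all 14506 genes, with 4 of the 54 at an unadjusted p under 0.05) and 0 of 54 with it (0% of all genes, 12 at an unadjusted p under 0.05). At 10 days 0 passed without the block (0% of all genes, 7 at an unadjusted p under 0.05). With the block 8 passed (14.8%), beside 6.43% of all genes: 2 were higher (Cbr3 and Gstp1; 3.12% of all genes were) and 6 lower (3.31% of all genes were). Gstm7, Fmo1 and Sult1a1 are 3 of the 6 lower ones. Leaving them aside, it was 5 of 51 (9.80%), with 2 higher and 3 lower.

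Leaving out 1 pair leaves the block fit 1 residual degree of freedom. Where that pair is a 10-day one, each 10-day group holds 1 array, which is assumed to vary like the 24 h pairs. When pair 2 at 10 days was left out, Gstm2 still passed (adjusted p = 0.0265), while Cbr3 (0.0634), Sult1d1 (0.0601), Sult4a1 (0.0544) and Gstp1 (0.154) did not. Leaving out pair 1 at 10 days kept these 5, with Gstp1 at an adjusted p of 0.0354. Leaving out either 24 h pair lost Sult4a1 (0.0507) and Gstp1 (0.0907). With the prefix as a random block in place of a fixed one, Cbr3 alone passed (adjusted p = 0.0494).

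Over both times, 13 of the 37 genes above the floor went the same way in all 4 pairs (35.1%, beside 32.7% of all genes above the floor). Of these, 10 were lower (27.0%, beside 17.2%): Gstm1, Gstm2, Gstm7, Fmo1, Fmo4, Sult1a1, Sult1d1, Sult4a1, Akr1c19 and Akr1e2. The FGF9 differences of Gstm7, Fmo1 and Sult1a1 were known when the group was put forward, so nothing is read from that share. Cbr3, Mgst2 and Akr1b1 were the 3 higher ones, where 1684 of 10879 genes were higher. Gsta1, Gsta4, Gstt2, Nqo1 and Sult5a1 were lower in both pairs at 24 h and higher in both at 10 days (13.5%, beside 8.82%). Gsto1 alone went the opposite way (2.70%, beside 5.35%). The change of the FGF9 difference between the times passed for 0 of the 54 genes in limma without the block (0% of all genes, 1 at an unadjusted p under 0.05) or with it (0.0483% of all genes, 13 at an unadjusted p under 0.05). The largest rise of that difference was in Gsta1 (1.03, block SE 0.31, adjusted p = 0.28).

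**Figure D3:**
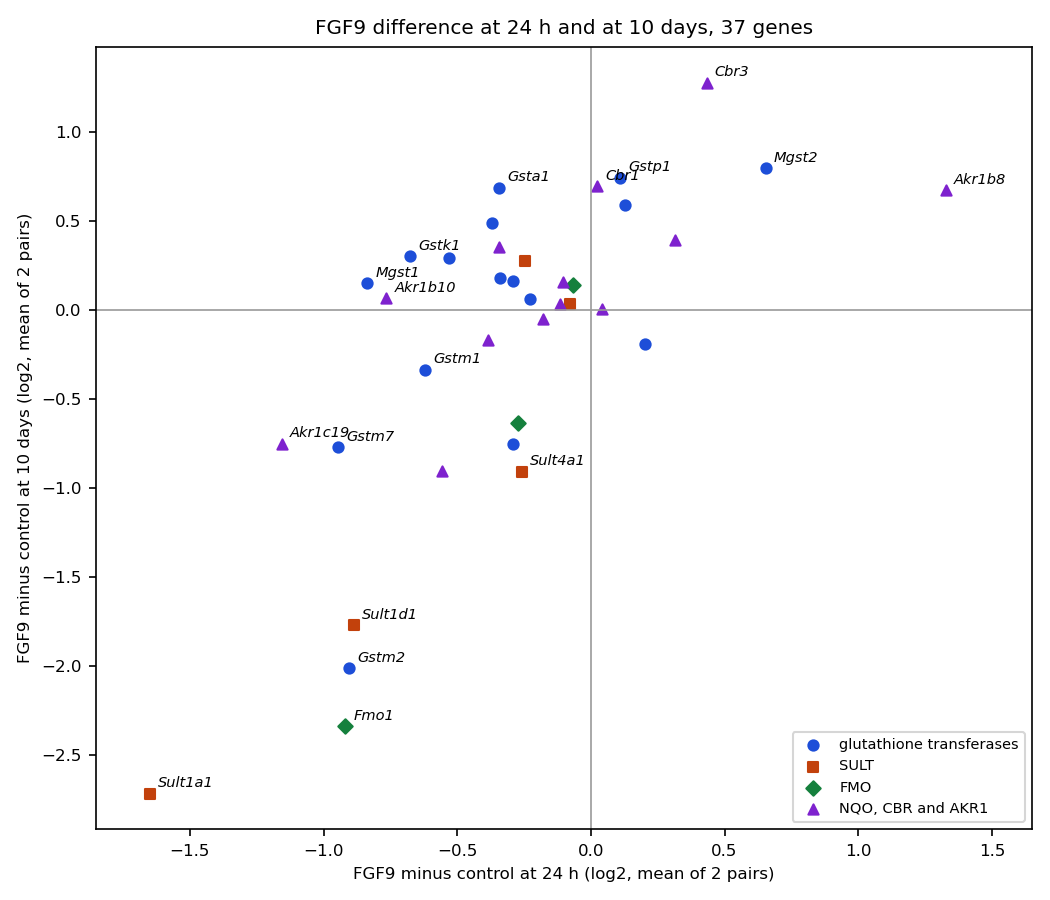
Mean log2 difference of FGF9 minus control at 24 h (x axis) and at 10 days (y axis) for the 37 genes above the floor, coloured by family. Sult1a1, Fmo1, Gstm2 and Sult1d1 lie far down on the lower left, Cbr3 at the top right, and Gsta1, Gstk1 and Mgst1 to the left of zero at 24 h and above zero at 10 days.

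The differences between 10 days and 24 h were not used to choose the genes. In controls 0 of 54 passed without the block (0% of all genes, 5 at an unadjusted p under 0.05) and 0 with it (0.00689% of all genes, 12 at an unadjusted p under 0.05). In FGF9 cultures 0 passed without the block (0% of all genes, 12 at an unadjusted p under 0.05), and 9 passed with it (16.7%, beside 11.0% of all genes). Of these 9, 7 rose (4.88% of all genes did): Gsta1 by 1.24 ± 0.26 (block SE, adjusted p = 0.0393), Gsta4 by 1.20 ± 0.21, Gstk1 by 1.33 ± 0.26, Gstt2 by 1.21 ± 0.23, Mgst1 by 1.07 ± 0.22, Sult5a1 by 1.39 ± 0.18 and Akr1b10 by 0.79 ± 0.17. Sult4a1 (-1.25 ± 0.16, adjusted p = 0.0147) and Gsto1 (-1.05 ± 0.18) fell, beside 6.07% of all genes. For Gsto1 the difference without the block was 0.03 ± 0.65, and its AA1 values were 10.49 in FGF9 and 10.61 in control cultures. This contrast was added after the data were seen, and with the prefix as a random block Sult5a1 alone passed. With the block, a time change is tied to the 4 CL2 arrays, the only ones that hold both times under 1 prefix. The other arrays enter it only through their FGF9 differences. In controls with the block, the changes were 0.20 (Gsta1), 0.37 (Gsta4), 0.35 (Gstk1), 0.36 (Gstt2), 0.08 (Mgst1), 0.87 (Sult5a1) and -0.04 (Akr1b10). For Sult4a1 and Gsto1 they were -0.60 and -0.66.

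The values of the 4 CL2 arrays are part of the block time changes above, so reading them alone is not a separate look. Within these arrays, 10 days minus 24 h for Gsta1 was 1.01 in FGF9 cultures and 0.43 in controls. For Mgst1 it was 0.96 in FGF9 cultures and 0.19 in controls, and for Gstk1 1.10 in FGF9 cultures and 0.59 in controls. For Gstp1 it was -0.43 in FGF9 cultures and -0.78 in controls.

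**Figure D4:**
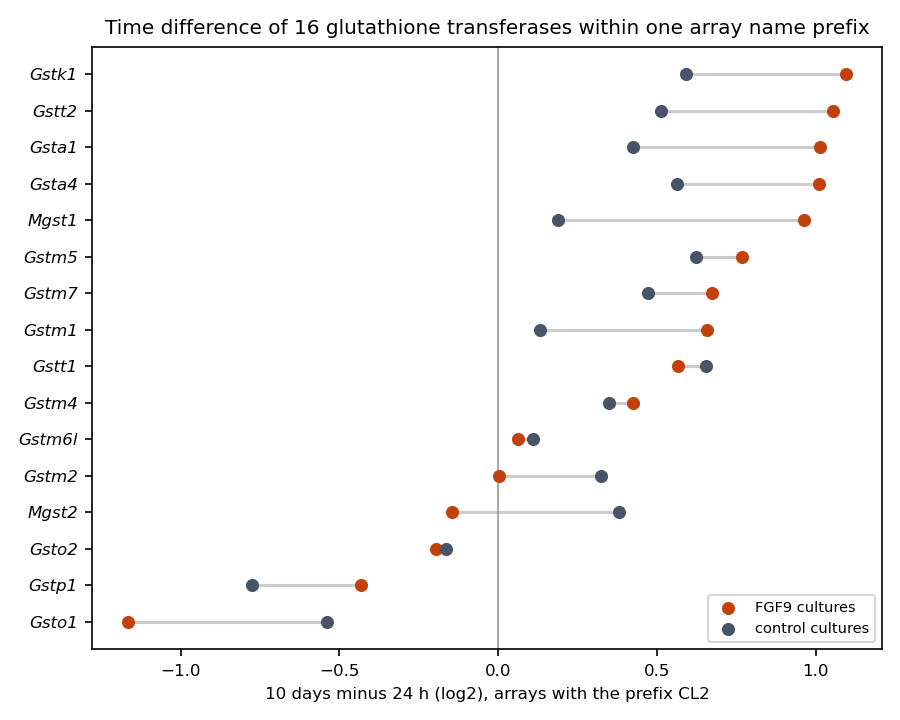
Log2 difference of 10 days minus 24 h on the CL2 arrays for the 16 glutathione transferases above the floor, in FGF9 cultures (orange) and controls (dark), 1 array per time and treatment. Gstk1, Gstt2, Gsta1, Gsta4 and Mgst1 gained between 0.96 and 1.10 in FGF9 cultures, more than in controls, and Gsto1, Gsto2 and Gstp1 lie left of zero in both.

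Several of these genes differed more between array name prefixes than between FGF9 and control. Gstp1 spanned 2.84 log2 units over the 4 controls, Nqo1 2.11, Mgst2 3.56 and Akr1c14 4.12, each with its lowest control value on the AA1 array. These spans also hold the time, since the AA1 arrays are all from 10 days. Among the 10-day controls alone, CL2 and AA1 read 11.35 and 9.28 for Gstp1 and 10.86 and 9.45 for Nqo1. They read 8.90 and 5.34 for Mgst2 and 8.54 and 4.86 for Akr1c14. Akr1c14 was nearly as low on the CL1 control (4.90, against 4.86 on AA1). Fibroblast, pericyte and leptomeningeal markers had list means of 6.66 in FGF9 and 6.69 in control cultures on the AA1 arrays, against 8.49 to 9.87 on the 6 other arrays. Whether that difference has a part in the values of these genes was not tested.

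Lists of cell type markers were read beside these values. At 24 h all 9 astrocyte, all 9 oligodendrocyte and myelin and all 10 neuronal markers measured were lower (medians of -0.58, -0.54 and -0.19), beside 50.3% of all genes, and 0 passed in either fit. The astrocyte list had list means of 10.83 and 10.42 in FGF9 cultures, against 11.39 and 11.41 in controls. At 10 days the astrocyte means were 11.71 and 12.06 in FGF9 cultures, against 11.68 and 11.63 in controls (median 0.05). The myelin means at 24 h were 10.92 and 8.98 in FGF9 cultures, against 11.47 and 9.70 in controls. Of the 5 oligodendrocyte precursor markers 4 were higher at 10 days (median 0.72), beside 53.2% of all genes. Of them 1 rose with the block, where 3.12% of all genes did. The ependymal and choroid plexus list was lower at 10 days in all 7 measured markers (median -1.52), beside 46.8% of all genes. Of these markers 4 passed with the block, where 3.31% of all genes fell. The list means were 6.56 and 6.44 in FGF9 cultures, against 8.18 and 7.91 in controls. No ependymal or astrocyte marker measured had an 8-array mean under the floor. The part of these cells in the 24 h and 10-day differences of the enzymes was not tested.

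Genes around the same chemistry were read from lists chosen with earlier results of these data known. Over all genes 0% passed at 24 h, and at 10 days with the block 3.12% rose and 3.31% fell; the lists below had at most 2 calls in a direction, and nothing particular to a list is read from them. Of 23 glutathione synthesis and redox genes 0 passed at 24 h in either fit (median 0.00), and at 10 days 1 rose and 1 fell with the block (median 0.21). Anpep, a surface peptidase in the breakdown of extracellular glutathione, read 8.80 and 8.41 in FGF9 cultures at 10 days, against 6.95 and 4.74 in controls (2.76, block SE 0.41, adjusted p = 0.0258). Slc7a11, the cystine importer that feeds glutathione synthesis, read 10.87 and 11.10 in FGF9 cultures, against 12.08 and 12.46 in controls (-1.28, block SE 0.20, adjusted p = 0.0275).

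Of 22 NRF2-related genes measured, 17 were higher at 10 days (median 0.33), beside 53.2% of all genes, while 1 rose and 1 fell with the block. The riser was Nfe2l2 itself (0.83, block SE 0.16, adjusted p = 0.0425; pair values 0.88 and 0.78) and the other was Slc7a11, which is in both lists. Hmox1, heme oxygenase, differed by 0.92 ± 0.91 at 24 h and by 0.72 ± 0.91 at 10 days and did not pass.

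Among 35 other phase I enzymes measured, 26 were lower at 24 h (median -0.25, 0 passed), beside 50.3% of all genes, and at 10 days 0 rose and 2 fell with the block. Among those lower in both 24 h pairs were Aox1, aldehyde oxidase (-2.12 ± 0.63; -0.92 and -3.31 in the pairs) and Maob, monoamine oxidase B (-1.64 ± 0.25). At 10 days Maob (-1.24, block SE 0.17, adjusted p = 0.022) and Dhrs3, which reduces retinal (-0.74, block SE 0.15, adjusted p = 0.0451), fell. In the 13 other phase II genes measured, 0 passed at 24 h and 1 rose at 10 days with the block. That riser was Ugt8 (0.68, block SE 0.14, adjusted p = 0.0469), which is also in the oligodendrocyte and myelin list.

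The 17 genes under the floor were Gsta3, Gstm3, Gstm6, Fmo2, Fmo9, Sult1b1, Sult1c2, Sult1c3, Sult2a1, Sult2a2, Sult6b1, Akr1b7, Akr1c1, Akr1c12, Akr1c2, Akr1c3 and Akr1d1. None passed in either fit of the FGF9 comparisons, and at such values a difference cannot be told from the background of the array. A further 6 features of these families that carry several symbols, among them Gsta2 with Gsta5, were not used.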

How the data were processed

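The deposited table holds 1 log2 value per feature and array; that scale was read from the values themselves (3.61 to 14.65). According to the labels and per the submitters' processing notes, the authors worked with Partek 6.5 and GCRMA (background correction and summarization of probe intensities); how these were combined, and the genome build, are not given in the sources. The log2 values were used as deposited.

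Of 29214 features, 15310 had 1 gene symbol, 323 several and 13581 none in the platform annotation; 15279 of the first were found in RefSeq by Entrez identifier and 0 symbols changed. The feature with the highest mean per gene left 14506 genes.

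All genes and all 8 arrays entered one limma 3.58.1 fit (R 4.3.3, lmFit, eBayes) with a mean for each group, which leaves 4 residual degrees of freedom. P-values were adjusted by Benjamini-Hochberg over the 14506 genes, and 0.05 was the threshold. Every p in the text is such an adjusted p unless called unadjusted. An alternative, called the block, added a fixed term for each of the 3 prefixes and left 2 degrees of freedom. Pair 2 at 24 h and pair 1 at 10 days share the CL2 term. The pairing comes from the shared array name prefix, whose meaning the labels do not give. Deviations of same-numbered arrays from their group means had a correlation over genes of 0.757 (24 h) and 0.819 (10 days), and the median residual SD was 0.30 without and 0.145 with the block. The number of arrays limits the precision.

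Members, lists and the naming rule were chosen with earlier results of these data known. The rule for genes described singly takes Gstm7, Fmo1 and Sult1a1, up to 6 members per direction and time with the largest difference among those whose pairs have one sign and whose mean is above the floor, the member with the highest mean of each family, and the largest control time differences. Fmo4, Gstm6l, Akr1e2, Akr1b10, Akr1c14 and other members are given outside that rule. Alternatives were the block, fixed or random, other scalings, a filter on low means, the mean of a gene's features, fewer arrays and leaving out arrays or pairs.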

Additional observations from a re-analysis of the deposited data

Results flagged for a closer look

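In 6 genes above the floor the FGF9 difference had one sign in both 24 h pairs and the other sign in both 10-day pairs. Of all genes above the floor, 8.82% went from lower to higher in this way and 5.35% from higher to lower. The difference at 10 days minus that at 24 h was 1.03 log2 units for Gsta1, 0.82 for Gsta4, 0.85 for Gstt2, 0.69 for Nqo1, 0.52 for Sult5a1 and -0.39 for Gsto1. The change was tested as a contrast of the fit, and none of the 6 passed without the block or with it (block adjusted p between 0.28 for Gsta1 and 0.498 for Gsto1).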

How the results depend on the processing

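Calls depended on the block being in the fit. Without a replicate block 0 of the 54 genes passed in any of the 5 contrasts, under quantile normalization, subtracted array medians, a filter on low means, the mean of a gene's features, only the groups compared, or leaving out the AA1 arrays or any single array (0 to 0 members). With the replicate block 8 passed at 10 days and 9 in the FGF9 time contrast, and a random block for the prefix gave 1 in each; the fixed block changed no other count of members called. Chosen after seeing the data, block fits gave at 10 days 5 without either 24 h pair, 10 without pair 1 at 10 days, 3 without pair 2 at 10 days, 7 with quantile normalization and 8 with subtracted array medians. At 24 h they gave 3 without either 10-day pair (Gstm2 and Mgst1, and Gstm7, which is not read as tested), beside 237 of all 14506 genes, for the change between the times 4 without pair 1 at 10 days, and for the FGF9 time contrast 9 and 10 with those scalings. Over all genes the block gave 933 at 10 days, 1589 in the FGF9 time contrast and 0 at 24 h. The all-gene count at 10 days was higher without pair 1 at 10 days. It was lower without pair 2 at 10 days, without either 24 h pair and with the random block. The all-gene count was also lower with the random block in the FGF9 time contrast. For the change between the times it was higher without pair 1 at 10 days. Member counts moved the same way in these fits, so nothing particular to the 54 genes is read from them.

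The median difference of the 54 genes was -0.16 at 24 h, -0.29 with low means filtered out (fewer genes tested), and -0.31 to -0.069 leaving out 1 array; at 10 days it was 0.08 and ranged from -0.021 to 0.14, so its sign is not fixed. The control time median ranged from 0.01 to 0.21. Leaving out 1 array, which unbalances the pairs, turned the sign of Akr1a1 (-0.058 to 0.14), Gsto1 (-0.31 to 0.71) and Mgst2 (-0.26 to 1.56) at 24 h, and of Gstp1 (-0.29 to 1.77) and Mgst2 (-0.99 to 2.58) at 10 days. Sult1a1 ranged from -3.21 to -0.09 at 24 h. The 10-day ranges of Gstm2 (-3.04 to -0.98) and Cbr3 (1.04 to 1.51) held their sign. With 2 arrays per group and low values near background, small differences of dim genes are not detectable here.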
